A study of Mus musculus with 3 samples.

Results

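The genes described here are annotated microRNA (miRNA) precursor hairpins that received reads in chromatin-associated RNA of mouse macrophages. They were selected on estimated counts in the alignment-free table, which was quantified from the reads without genome alignments, as genes of transcript type miRNA with a mean over the libraries of at least 20. Of 2202 miRNA genes in that table, 264 met this rule, 762 had some counts below it and 1176 were at 0 in every library, among 55450 annotated genes in all. Since these counts chose the members, their levels in that table are given as a description with no test.

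The libraries were total RNA libraries, depleted of ribosomal RNA, from the chromatin fraction of C57BL/6J mouse macrophages grown from bone marrow. These primary cells had received Lipid A, the Toll-like receptor 4 ligand part of lipopolysaccharide, at 100 ng/ml for 40 min; the age of the mice was not collected. All 3 libraries, numbered as biological replicates 1, 2 and 3, belong to this 1 group and cite the same donor entry, with an RNA input of 1 µg, 250 ng and 500 ng. No untreated sample was analysed here, so a response to Lipid A was not measured, and p-values measure the spread between these libraries only.

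Estimated counts totalled 19789390, 31596771 and 30505141 in replicates 1, 2 and 3, and expected counts of the gene tables, derived from alignments, totalled 12699813, 18280033 and 18087091. Where a hairpin had 0 counts, its share could still reach 1.53e-05%, 9.51e-06% and 9.85e-06% of the estimated counts (3 counts; counting error only). Of 12 macrophage markers 9 had a mean TPM (a transcript level scaled for length and for library depth) of at least 10 and none was under 1, while 23 of 26 markers of other cell types were under 1. The markers of other cell types summed to a TPM of 8.01, 18.5 and 14.3 and the macrophage markers to 1137, 1124 and 981, and Ly6g, Cd3e and Adipoq were among 9 listed at 0.

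A miRNA is transcribed as part of a long primary transcript, either its own or the intron or exon of a host gene. The nuclear Drosha and Dgcr8 complex cuts the hairpin out, in many cases while the transcript is still on chromatin, and Dicer1 then frees the mature strand, which an Argonaute protein carries to its targets. Target choice rests largely on the seed near the 5′ end of the mature strand. The values below count fragments that match the letters of an annotated hairpin, so they report the primary transcript or other RNA with the same letters, and mature miRNAs were not measured separately.

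Members were 54 to 207 bases long, with a median of 96. Their sequences fell into 3 kinds, a division made after their values were seen. For 65 hairpins no 31-base word occurred in any other annotated transcript on either strand (own-sequence hairpins). Another 105 held a perfect tandem run of at least 20 bases with a unit of up to 6 bases, and the remaining 94 shared a 31-base word with another annotated transcript. The other 1938 miRNA genes held 857, 88 and 993 of these kinds.

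The own-sequence hairpins include miRNAs known from macrophage biology. Mir221, Mir222, Mir511 and Mir6353 are shown because they carried the highest counts of this kind, in mm10 letters of the annotated transcript. Capitals mark the mature strands listed by RefSeq.
Mir221: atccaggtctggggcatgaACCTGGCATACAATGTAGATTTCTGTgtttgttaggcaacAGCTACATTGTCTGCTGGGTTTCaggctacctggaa
Mir222: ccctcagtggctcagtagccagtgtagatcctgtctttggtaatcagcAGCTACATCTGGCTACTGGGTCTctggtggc
Mir511: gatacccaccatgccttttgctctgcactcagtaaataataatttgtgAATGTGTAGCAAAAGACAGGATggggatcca
Mir6353: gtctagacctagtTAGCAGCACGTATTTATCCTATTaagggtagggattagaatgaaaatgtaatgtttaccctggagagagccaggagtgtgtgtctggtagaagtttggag

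Of the members, 58 matched a mature strand in RefSeq (build GRCm38.p6) by symbol, with 84 strands and 81 seeds among them. A seed was shared by members at 3 points. Mature strands are printed for the shared seeds of well-counted members and for the other listed members described below except Mir23b, of which the table holds the 5p strand alone, with the seed (bases 2 to 8) in capitals. The first pair shares GCUACAU, and the second pair, from chromosomes 14 and 1, shares AGCAGCA, the seed of the miR-15 and miR-16 family.
mmu-miR-221-3p: aGCUACAUugucugcuggguuuc
mmu-miR-222-3p: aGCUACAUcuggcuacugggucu
mmu-miR-15a-5p: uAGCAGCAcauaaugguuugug
mmu-miR-6353: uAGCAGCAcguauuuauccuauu
mmu-miR-511-3p: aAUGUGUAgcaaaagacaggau
mmu-miR-146a-5p: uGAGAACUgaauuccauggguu
mmu-miR-23a-3p: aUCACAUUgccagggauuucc
mmu-miR-27a-3p: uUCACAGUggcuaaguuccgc
mmu-miR-24-3p: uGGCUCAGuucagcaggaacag
mmu-miR-29a-3p: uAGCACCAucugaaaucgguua
mmu-miR-186-5p: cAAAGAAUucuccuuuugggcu
The third shared seed, CCGGGCA, joined Mir1946b and Mir8111.

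The highest counts belonged to hairpins of another kind. Gm23935, Gm24245 and Gm24270, on chromosomes 16, 4 and 9, have the same 57 bases, so their counts cannot be told apart. Gm24187 on chromosome 13 differs from them by G11A, counted from 1 at the 5′ end. Both forms are shown, with the base that differs in capitals.
Gm23935: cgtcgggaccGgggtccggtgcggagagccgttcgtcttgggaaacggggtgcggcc
Gm24187: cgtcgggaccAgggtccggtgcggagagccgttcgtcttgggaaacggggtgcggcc

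Tandem repeats are illustrated by a pair of hairpins with high counts that hold the commonest unit on opposite strands, with the longest perfect run in capitals.
Gm23237: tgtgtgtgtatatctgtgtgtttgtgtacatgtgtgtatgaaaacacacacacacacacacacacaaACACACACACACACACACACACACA
Gm25000: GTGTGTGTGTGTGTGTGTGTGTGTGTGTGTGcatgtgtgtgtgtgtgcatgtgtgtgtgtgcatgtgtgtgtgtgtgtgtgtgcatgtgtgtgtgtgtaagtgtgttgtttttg

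Among hairpins with shared words, 50 of 94 were linked to each other through common 16-base words. The 3 with the highest counts that hold the commonest word are shown, with that word in capitals. It occurred in 39 of the 50, and in 2460 of 55450 annotated genes (4.44%) on either strand.
Gm23967: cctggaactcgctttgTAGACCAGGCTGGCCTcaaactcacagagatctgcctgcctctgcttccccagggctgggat
Gm22860: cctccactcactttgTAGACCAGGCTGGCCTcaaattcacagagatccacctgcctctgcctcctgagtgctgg
Gm24365: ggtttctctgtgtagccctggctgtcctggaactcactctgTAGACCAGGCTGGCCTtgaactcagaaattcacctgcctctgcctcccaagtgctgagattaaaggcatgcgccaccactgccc

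Mir221 and Mir222 are a pair on the minus strand of chromosome X at 19146294 to 19146971 (mm10) with no annotated host. Mir221 led the own-sequence hairpins with a mean of 555, followed by Mir511 at 389 and Mir222 at 372. Mir221 had 688, 386 and 592 estimated counts in replicates 1, 2 and 3. Mir222, its close neighbour, had 365, 302 and 449. Both were lowest in replicate 2, and Mir221 lay above Mir222 in each library. Scaled to the library total, as CPM, Mir221 stood at 34.8, 12.2 and 19.4, again lowest in replicate 2.

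Mir511 lies in an intron of Mrc1, the mannose receptor gene of macrophages, on chromosome 2 at 14261003 to 14261081. It had 427, 378 and 363 counts in replicates 1, 2 and 3. By CPM it stood at 21.6, 12.0 and 11.9, so replicate 1 was the highest. Mir6353, in an intron of Pid1 on chromosome 1, had 230, 182 and 274. Mir1938, in an intron of Ifrd1 on chromosome 12, had 480, 1044 and 768, the highest mean of all members named Mir, and shared 34.3% of its 31-base words with 1 other gene.

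The chromosome 8 cluster of Mir23a, Mir27a and Mir24-2, a myeloid-linked cluster at 84208518 to 84208921 on the plus strand, entered with all its hairpins. Mir23a had 188, 155 and 315 counts, Mir27a 52, 48 and 88, and Mir24-2 41, 73 and 80 in replicates 1, 2 and 3. Mir23a was the highest of the cluster in every library, and replicate 3 held the highest count of each. Mir146, on chromosome 11, which in mice targets adaptors of Toll-like receptor signalling, had 61, 25 and 47 counts. Mir15a in an intron of Dleu2 had 54, 38 and 65, Mir29a on chromosome 6 42, 39 and 46, and Mir186 in an intron of Zranb2 29, 23 and 26. Counts under 100 were usual, with 197 of 264 members below that mean.

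**Figure D1:**
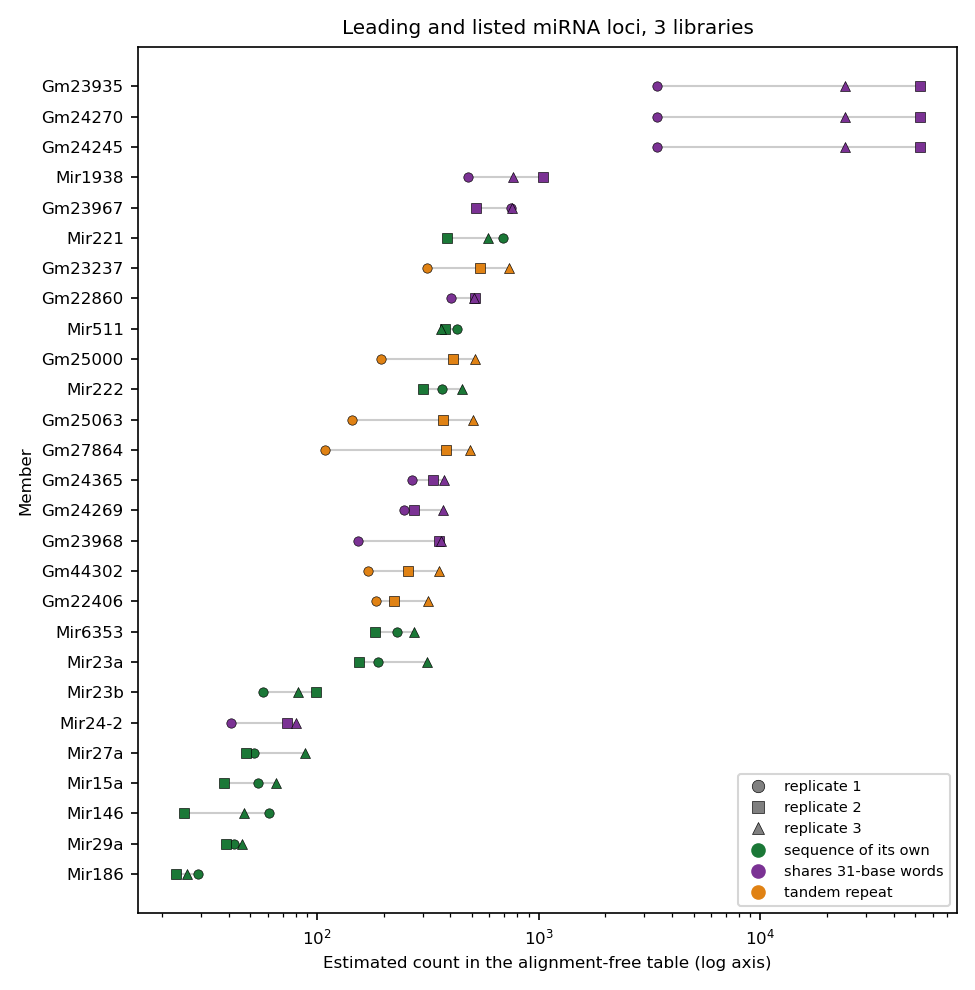
Estimated count (horizontal log axis) of 19 of the 20 members with the highest mean and of the listed members, 1 row each, with a symbol for each replicate and a colour for the kind of sequence. The 3 identical hairpins stand at 3423 counts in replicate 1 and 52490 in replicate 2, while Mir511, in counts not scaled for depth, lies between 363 and 427.

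Lists of miRNA genes were drawn up from general knowledge. Of 19 inflammation-linked genes 3 were members (Mir221, Mir222 and Mir146), of 12 myeloid genes found 5 (Mir511, Mir23a, Mir23b, Mir24-2 and Mir27a), of 43 broadly expressed genes 3 (Mir15a, Mir29a and Mir186), and of 45 genes linked to other tissues 0. Among all miRNA genes 12.0% were members. The listed genes are all named Mir, and of 1174 genes so named 62 were members, a smaller share. The highest gene of the other-tissue list was Mir181a-2, at 14, 16 and 22 counts. Listed genes just under the threshold included Mirlet7c-1 at 25, 9 and 15, Mir342, in an intron of Evl, at 6, 25 and 16, and Mir29b-1 at 10, 17 and 18.

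Several miRNAs known from macrophage biology were listed at 0 in every library. Among them were Mir155, induced through Toll-like receptors, Mir21a, Mir22, Mir147 and the myeloid Mir223, and each of these hairpins lies wholly inside an exon of another annotated transcript. The gene tables did count that other transcript. Mir155hg, the host transcript of Mir155, had 3431, 1002 and 3155 expected counts, Vmp1, whose exon holds Mir21a, 9017, 7453 and 7758, and F630028O10Rik, around Mir223, 2812, 1655 and 2223. AA467197, around Mir147, had 0, 1 and 2. Of the hairpins named here, Mir147 alone lay inside a nearly uncounted transcript, and all were at 0.

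The same was seen over all 2202 loci. Of 408 hairpins whose whole sequence occurs in another annotated transcript, 381 (93.4%) were at 0 and 6 (1.47%) were members, against 795 (44.3%) at 0 and 258 (14.4%) members among the other 1794. All 41 such hairpins on the lists were at 0, but 75 listed hairpins were at 0 in all, so many zeros lay elsewhere. Of 12 inflammation-linked hairpins at 0, 6 lay inside another transcript. The 6 members were Gm22064, Gm22643, Gm24605, Gm25315, Gm25603 and Gm44363, chosen after their values were seen, and 5 of them are tandem repeats. By host, 106 members lay in an intron, 151 had no host on their strand, 3 lay partly in an exon and 4 within one, against 721, 872, 80 and 265 of the other miRNA genes. What part the counting method has in these zeros was not tested.

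Neighbours of 1 cluster showed the same division. On chromosome 13, Mir23b in an intron of 2010111I01Rik had 57, 99 and 82 counts in replicates 1, 2 and 3. Mir27b and Mir24-1, nearby and within an annotated exon of the same gene, had 0 in every library. Their paralogues on chromosome 8, Mir27a and Mir24-2, with no annotated host, were members. In Dleu2, the intronic Mir15a had 54, 38 and 65 counts, while Mir16-1, partly in an exon, had 1, 2 and 5. Mir142, a hairpin of blood cells, had 0 in every library, and Mir142b, which overlaps it on the other strand and was chosen after its values were seen, had 43, 44 and 57. How strand was treated is not stated, so these overlapping hairpins cannot be told apart.

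The 3 identical hairpins dominated the summed counts. Each of Gm23935, Gm24245 and Gm24270 had 3423, 52490 and 24239 estimated counts in replicates 1, 2 and 3, so the lowest and highest libraries differed by over an order of magnitude. They made up 37.2%, 86.6% and 72.4% of the members' summed counts. With effective lengths of only 15.0, 13.2 and 13.6 bases in this table, they took 4.06%, 32.6% and 18.2% of all TPM. Their near copy Gm24187 had 4.31, 47.2 and 31.7 counts.

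Replicate 2, made from 250 ng of RNA, was highest and replicate 1, made from 1 µg, lowest for these 3. Other RNAs moved in the same order. CT010467.1, annotated as ribosomal RNA, took 0.967%, 2.93% and 2.45% of the estimated counts of annotated genes in replicates 1, 2 and 3. Mir6236, an own-sequence hairpin chosen after its values were seen, had 11, 419 and 82 counts. That kind was set by annotated transcripts only. Gm26917 took 11.0%, 20.2% and 17.8%. The longest stretch that the 57-base hairpin shares with an annotated transcript was 8 bases for CT010467.1 and 10 bases for Gm26917. A ribosomal DNA repeat outside annotated transcripts was not compared, so these short matches do not tell whether the hairpin has ribosomal sequence. The part of RNA input or of ribosomal RNA in these counts was not tested.

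Without the 3 identical hairpins the members were far more even. The other 261 summed to 17338, 24324 and 27749 counts, or 0.0884%, 0.0771% and 0.0911% of the counts of annotated genes, against 0.141%, 0.576% and 0.330% for all 264. Their share of TPM was 6.15%, 3.95% and 5.41%, against 10.2%, 36.5% and 23.6%. Any TPM of the alignment-free table in replicate 2 therefore stands on a scale of which a large part belongs to 3 copies of 1 sequence.

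**Figure D2:**
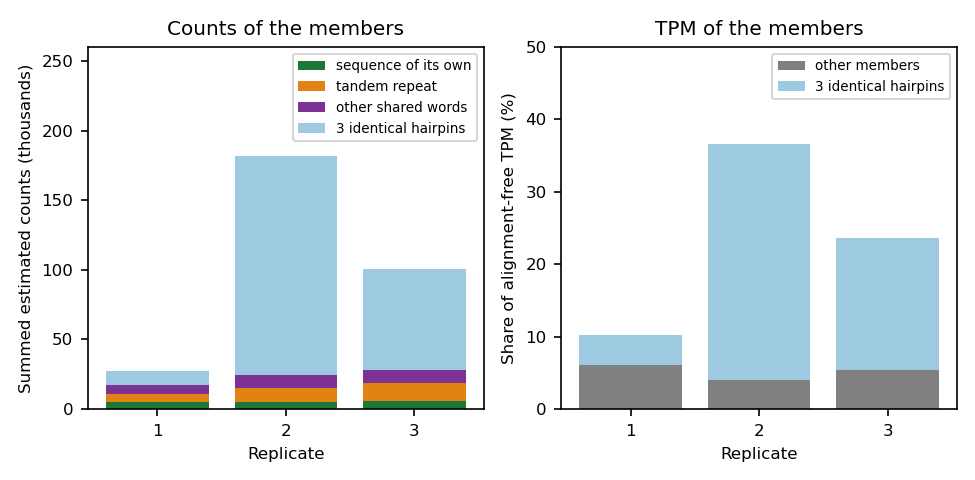
Summed estimated counts (left) and share of alignment-free TPM in percent (right) of the 264 members by replicate, with the 3 identical hairpins on top and the other members below them, split by kind of sequence on the left. The 3 identical hairpins make up 37.2%, 86.6% and 72.4% of the counts in replicates 1, 2 and 3, and the rest stays between 17338 and 27749 counts.

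Tandem-repeat hairpins were the most numerous kind. A repeat of A and C (or of T and G on the other strand) was the unit in 68 of 105, with runs of 23 to 51 bases, a 4-base unit of A, C, A and T in 12 and A and T alone in 11. Gm23237 had 313, 543 and 732 counts in replicates 1, 2 and 3, and Gm25000 had 195, 410 and 519. Gm25063, Gm27864, Gm44302 and Gm22406, also tandem repeats of the leading 20, ranged from 109 to 504 counts. Each of these 6 had its lowest count in replicate 1, the library of least depth, and its highest in replicate 3. By CPM replicate 3 was again highest for each, but Gm44302 (8.57, 8.15 and 11.6) and Gm22406 (9.34, 7.07 and 10.3) were lowest in replicate 2.

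The pair Gm44339 and Gm44481, chosen after their values were seen, had the largest spread between libraries of all members. They are 84-base repeats that differ by G15A and lie antisense to Ifi209 and Ifi214 on chromosome 1. Gm44339 had 63.6, 0.005737 and 154.5 counts in replicates 1, 2 and 3, and Gm44481 5.78, 126.6 and 0. Their sum was 69.4, 126.6 and 154.5, so the library in which 1 copy was near 0 was the one in which the other held the counts.

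The linked group of 50 hairpins holds sequence that recurs widely in annotated transcripts, with a median of 1143 genes sharing a 31-base word. Gm23967 had 751, 519 and 761 counts in replicates 1, 2 and 3, Gm22860 404, 515 and 510, and Gm24365 268, 335 and 376. Gm24269 and Gm23968, also among the leading 20, ranged from 154 to 369. Gm23967, Gm22860 and Gm24269 lay far below that median, sharing a word with 39, 44 and 1 genes. Gm24365 and Gm23968 lay above it, with 1688 and 1429. The 50 summed to 4186, 5537 and 5987 counts. A further 10 hairpins formed the next largest group, at 624, 708 and 770 counts.

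Whole numbers, within 0.001 of an integer, were usual for own-sequence hairpins. All 65 had whole estimated counts in every library, as did 7 of 94 hairpins with shared words and 1 of 105 tandem repeats. Among all miRNA genes, those at 0 included, 922 of 922, 772 of 1087 and 45 of 193 of these kinds were whole. Own-sequence hairpins were defined by the lack of shared words, so nothing is read from their whole counts. Of members named Mir, 48 of 62 were own-sequence, against 16 of 201 members with a Gm number. The 1 member with another name, Snord43 in an intron of Rpl3, was own-sequence with a mean of 24. All 2202 miRNA genes held 1174 named Mir and 1021 with a Gm number. Their kinds were not counted by name, so whether the contrast is particular to members is not known. The own-sequence hairpins summed to 4888, 5097 and 5821 counts, the tandem repeats to 6002, 10341 and 12759, and the hairpins with shared words to 16718, 166356 and 81886.

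The threshold cut a continuous range. Just inside it lay Mir5123 with a mean of 20.46, Gm23992 with 20.29 and Gm25847 with 20.20, and just outside it Mir3473f with 19.73, and Gm27415 and Mir7656 with 19.67 each.

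The gene tables, derived from alignments, held almost no count for any miRNA gene. Expected counts of the 264 members summed to 7, 8 and 8 in replicates 1, 2 and 3, and 254 members were at 0 in every library. The highest member, Gm24273, had 2, 1 and 2 expected counts, against 32, 56 and 23 estimated counts. Over all 2202 miRNA genes expected counts summed to 12.2, 18.6 and 15.2. The gene tables gave an effective length of 0 to 221, 221 and 219 of the members, while the alignment-free table gave the members 12.9 to 62.3 bases.

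All 264 members had an estimated count at least 4-fold the expected count, with 0.5 added to both, and the median ratio was 105. The rule chose high estimated counts, so nothing is read from this number. Among all genes that averaged 20 or more estimated counts the share with such a gap was 41.2%, and the median ratio 2.49. Protein-coding genes had a median ratio of 1.88, and small nucleolar RNAs, another class of short genes, 42.6. Long intergenic noncoding RNAs had a higher one, at 73.7. Small nuclear RNAs stood at 60.0, genes of type misc_RNA at 15.4 and those of type TEC at 7.64. Whether gene length bears on the ratio was not tested.

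**Figure D3:**
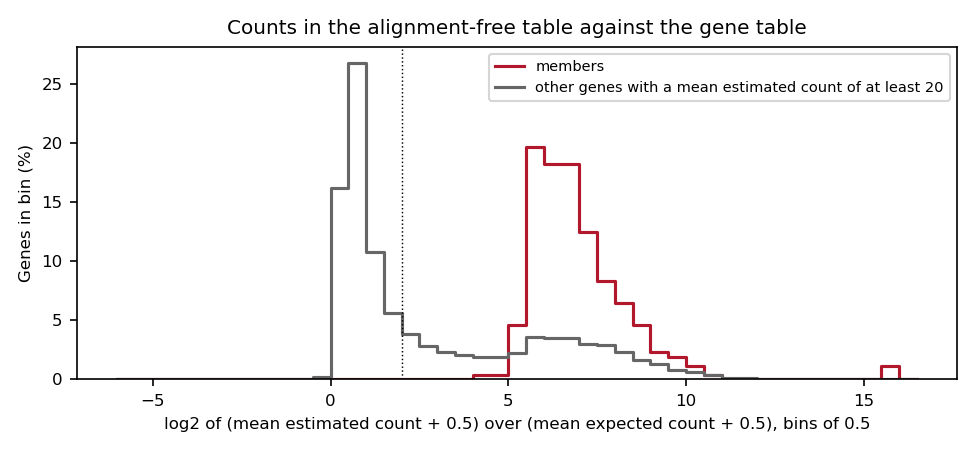
Percentage of genes (vertical) by the log2 ratio of estimated to expected counts (horizontal, bins of 0.5), for the members and for other genes with a mean estimated count of at least 20. The dotted line marks a 4-fold ratio, which all 264 members pass, and the other genes have their highest bins near a log2 ratio of 0.5 and a lower second group near 6.

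The level of the host gene in the gene tables was not used to choose the members, but both come from the same libraries. Counts of an intronic hairpin can be fragments of the host's own primary transcript. Host and hairpin levels are therefore not independent, and choosing well-counted hairpins can by itself favour high hosts. Host genes, defined as genes of another type on the same strand whose span holds the hairpin, were read from the gene tables and set against the reference gene, the library's median over expressed nuclear protein-coding genes, at a TPM of 7.56, 6.63 and 6.56 in replicates 1, 2 and 3. limma's treat method, fitted over the 18375 genes whose TPM averaged 0.1 or more, tested whether a gene lay more than 2-fold away, with Benjamini-Hochberg adjustment over all of them. Of all genes tested 15.1% were called higher and 52.4% lower. In bulk RNA, fewer cells of a type and less RNA per cell cannot be told apart.

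Hosts of members stood high. Of 112 hosts 96 passed the filter, of which 55 (57.3%) were higher than the reference gene, 15 lower and 26 neither. The hosts of other miRNA genes, of which 602 of 867 passed the filter, held 157 higher (26.1%) and 226 lower. With the filter at a mean TPM of 1 instead, 54 of 84 hosts of members were higher, beside 23.1% of all genes tested. Members' hosts spanned a median of 73558 bases on the genome and the other hosts 31840. Whether the span bears on the difference was not tested.

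The height of the hosts went with the kind of sequence. Of 43 hosts of own-sequence hairpins, all of which passed the filter, 36 (83.7%) were higher, 7 neither and 0 lower, with a median of 3.22 log2 units above the reference gene. With limma's unadjusted p under 0.05, 0 were lower. Among hosts of hairpins with shared words 12 of 27 tested were higher and 5 lower, with a median of 0.97. Among hosts of tandem repeats 7 of 26 tested were higher and 10 lower, with a median of -0.44, and a further 10 fell below the filter. The difference between these kinds was not tested.

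**Figure D4:**
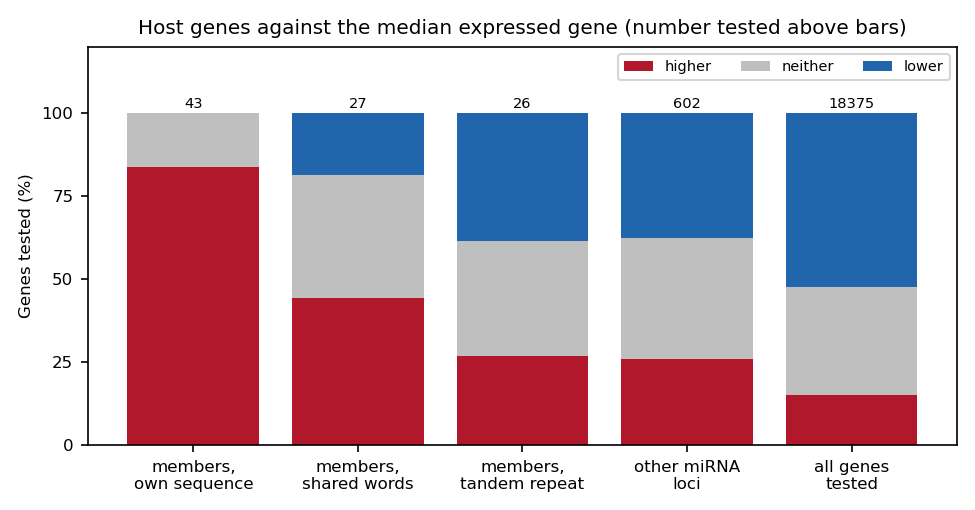
Share of tested genes (vertical, percent) called higher, neither or lower than the median expressed gene, for hosts of members by kind of sequence, hosts of other miRNA loci and all genes tested, with the number tested above each bar. The part called higher is 83.7% for hosts of own-sequence hairpins, 26.1% for hosts of other loci and 15.1% for all genes.

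Hosts of the named members illustrate this. Mrc1, host of Mir511, stood at 157, 145 and 149 TPM in replicates 1, 2 and 3. Relative to the reference gene its level was 4.43 ± 0.12 (SE) in log2 units (adjusted p = 3.3e-05, Benjamini-Hochberg, limma), and all 3 libraries lay above it. Its libraries were nearly equal, while its hairpin was highest in replicate 1 by CPM. Ifrd1, host of Mir1938 and an interferon-related regulator gene, had 2354, 1488 and 1837 TPM and lay 8.05 ± 0.19 above (adjusted p = 3.2e-05, limma). Ifrd1 was lowest in replicate 2, in which Mir1938 was highest.

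Pid1, which encodes a phosphotyrosine interaction domain protein, stood at a TPM of 171, 69.9 and 116 in replicates 1, 2 and 3, or a log2 level of 3.99 ± 0.23 over the reference gene (adjusted p = 2.7e-04, limma). Dleu2, a long noncoding RNA gene that hosts Mir15a, had 230, 86.5 and 135, or 4.31 ± 0.24 (adjusted p = 2.4e-04, limma). Both hosts and both hairpins were lowest in replicate 2. Zranb2, which encodes a zinc finger splicing protein and hosts Mir186, had 49.7, 32.8 and 39.5, or 2.52 ± 0.13 (adjusted p = 3.1e-04, limma). 2010111I01Rik, host of Mir23b, had 262, 284 and 247, or 5.24 ± 0.14 (adjusted p = 3.2e-05, limma), and overlaps Fancc on the other strand.

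A few other hosts, chosen after their values were seen, serve as examples. Itga5, an integrin subunit gene, lay 6.05 ± 0.15 log2 units above the reference gene and its hairpin Mir6963 had 85, 221 and 139 counts. Hnrnpk, which encodes a nuclear RNA-binding protein, lay 5.09 ± 0.16 above and Mir7-1 in its intron had 58, 86 and 95. Il10ra, the interleukin-10 receptor gene, lay 3.66 ± 0.13 above and Mir7086 had 17, 26 and 42. Hosts of tandem repeats ranged widely. Sgpl1, the sphingosine phosphate lyase gene that holds Gm44308, lay 4.81 ± 0.13 above and was called higher. Hnf4g, a nuclear receptor gene known from gut that holds Gm23237 in an intron, had 0 expected counts in every library, although Gm23237 had 313, 543 and 732.

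Peak1, the host of the identical copy Gm24270, stood at a TPM of 26.6, 27.1 and 31.3 in replicates 1, 2 and 3, a log2 level of 2.02 ± 0.14 over the reference gene (adjusted p = 6.8e-04, limma; 0.80 with a 4-fold band). Its libraries were nearly equal while the hairpin's differed by over an order of magnitude. The other copies had no host on their strand.

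Intronic own-sequence hairpins were then compared by host, members or not. Where the host was called higher, 35 of 123 hairpins (28.5%) were members and the median of the mean counts was 8. Where the host was neither, 6 of 125 (4.80%) were members and the median was 1.67. Where the host was lower, 0 of 128 were members and the median was 0.333, and of 133 hairpins whose hosts fell below the filter 0 were members. Over the 376 hairpins with tested hosts, Spearman's rho between host level and mean count was 0.61 and Pearson's r on log2 scales 0.63, a description over loci that share libraries and, in part, hosts.

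The other kinds were counted in the same way. Tandem repeats in introns were members in 6 of 6 cases with a higher host, in 8 of 11 with one called neither, in 9 of 15 with a lower one and in 10 of 17 with a host below the filter. Hairpins with shared words were members in 10 of 25 cases with a higher host, in 12 of 39 with one called neither, in 5 of 139 with a lower one and in 5 of 75 with a host below the filter. The difference between kinds was not tested.

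**Figure D5:**
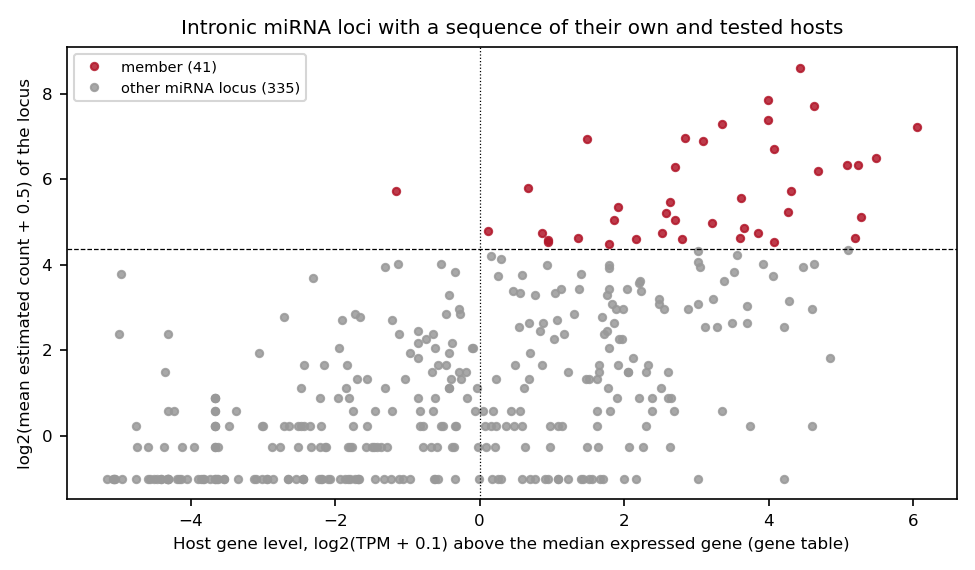
Mean estimated count (vertical, log2 of the mean plus 0.5) of 376 intronic own-sequence hairpins against the level of the host gene in the gene table (horizontal, log2 units from the reference gene at the dotted line). Members, above the dashed line at a mean of 20, lie mostly on the right, with 35 of 41 in hosts called higher.

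The spread between libraries was larger for the members than for genes in general. The median SD of log2 CPM over the 3 libraries was 0.39 for the 264 members and 0.28 for all 20508 genes that averaged 20 or more estimated counts. Between means of 20 and 100 it was 0.39 for members and 0.34 for 7248 other genes. In that range the medians were close without replicate 1, at 0.24 and 0.22. They were 0.34 and 0.29 without replicate 2, and 0.37 and 0.33 without replicate 3. Over all 3 libraries, own-sequence hairpins had a median of 0.48, tandem repeats 0.39 and hairpins with shared words 0.32. The order of the first pair turned with TMM scaling (0.39 and 0.43) and without replicate 2 (0.34 and 0.37). The SD was 1.66 for each identical hairpin, 0.94 for Mir146, 0.76 for Mir221, 0.50 for Mir511 and 0.38 for Mir29a.

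The kinds also differed in which library was high. By CPM, 42 of 65 own-sequence hairpins were highest in replicate 1 and 10 in replicate 2, while 65 of 105 tandem repeats were highest in replicate 3 and 60 lowest in replicate 1. With TMM scaling these numbers were 36, 15, 64 and 71. Replicate 1 was also the library of least depth and of most RNA input, and the part of these in the order was not tested.

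Genes of the miRNA pathway were read from the same fit. Of 46 symbols on the list 3 are absent from the tables as synonyms of other entries, and Lin28a and Lin28b were at 0. Of 41 tested, 20 were higher than the reference gene, 1 lower and 20 neither, beside 15.1% and 52.4% of all genes tested. The median was 0.90 log2 units above the reference gene, and that of all genes tested was -1.74.

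The core processing enzymes lay close to the reference gene. Drosha, the nuclear nuclease, stood at a TPM of 9.90, 10.6 and 12.2 in replicates 1, 2 and 3, Dgcr8, its RNA-binding partner, 5.04, 6.58 and 4.56, and Dicer1 9.43, 9.52 and 7.12. Xpo5, which exports the hairpin, had 3.60, 3.34 and 2.90. None of these passed the test. Among the Argonautes, Ago3 had 48.8, 37.0 and 35.1 TPM and was higher (2.51 ± 0.12 log2 units, adjusted p = 3.1e-04, limma), while Ago2, the slicing Argonaute, at 13.2, 10.7 and 11.7, did not pass.

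The 5 highest called genes had varied roles. Ddx5, a helicase of the Drosha complex, stood at a TPM of 640, 371 and 488 in replicates 1, 2 and 3 and lay 6.12 ± 0.17 over the reference gene on the log2 scale (adjusted p = 3.2e-05, limma). Tut7, a terminal uridylyl transferase that acts on hairpins, had 154, 134 and 123, or 4.28 ± 0.12. Pan3, of a deadenylase complex, lay 4.04 ± 0.16 above, the splicing factor gene Srsf3 3.66 ± 0.14 and Ddx17, the paralogue of Ddx5, 3.61 ± 0.11. Cnot8, of another deadenylase complex, was the only lower gene of the list, at a TPM of 1.40, 1.42 and 1.86 and -2.09 ± 0.21 (adjusted p = 0.0026, limma). It was not called with a 4-fold band (0.62) and stood at 0.18 in the alignment-free table (adjusted p = 1, limma), where its direction turned.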

How the data were processed

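The authors deposited for each library a gene table and a transcript table with expected counts and TPM, derived from transcriptome alignments, and a transcript table with estimated counts and TPM, derived directly from the reads, per the file headers and the notes deposited beside them. Lengths and effective lengths in bases were read as deposited. The build is mm10 and the annotation release M21; the sources used here name neither programs, strand treatment nor molecular identifiers. Members and lists were chosen with earlier results of these data known.

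Estimated counts were summed per gene. Transcript letters and positions came from GENCODE M21, mature strands from RefSeq (GRCm38.p6). Levels were log2(TPM + 0.1), which understates differences of low genes, minus the median, in that library, of nuclear protein-coding genes averaging 1 TPM or more. They were tested with treat of limma 3.58.1 (R 4.3.3; log2 band of 1, trended prior, Benjamini-Hochberg adjustment, threshold 0.05), which was checked on simulated data. Log2 CPM used edgeR 4.0.16 with a prior count of 2 on rounded estimated counts of annotated genes. Named genes were the 20 members with the highest mean, listed members, 3 on either side of the threshold, hosts of the named members, the 5 highest called pathway genes and every lower one; 1 of the 20 is not reported here. Replicates differed by far more than sampling noise (chi-square per degree of freedom from 41.0 to 116). No group contrast exists, so replicate numbers pair nothing. Alternatives are given in the closing section.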

Additional observations from a re-analysis of the deposited data

How the results depend on the processing

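A threshold of 50 on the mean kept 144 members and one of 10 kept 363; no miRNA gene (0) reached a mean of 20 in the gene tables, whose effective lengths are 0 for most hairpins. Counting only own-sequence hairpins gave 65 members and leaving out tandem repeats 159, alternatives chosen after seeing the data, as was counting hosts of own-sequence hairpins alone, of which 36 were higher. Requiring 20 in every library, the median or scaled counts gave 202, 261 and 265. Leaving out 1 replicate gave 255 to 286 members, 264 to 264 with a 4-fold gap, 50 to 54 higher hosts, 20 to 20 higher pathway genes, and a median SD of 0.26 to 0.38. For all genes that averaged 20 or more estimated counts that median SD was 0.18 to 0.29. Higher hosts numbered 41 with a 4-fold band and 64 with none, and 54 of the main 55 were among 60 in the alignment-free table; higher pathway genes numbered 14, 29 and 22. Of 130 values of 13 named hosts and pathway genes under alternatives, 127 kept their direction and call, 2 lost the call with the 4-fold band (Peak1 and Cnot8), and Cnot8 turned to 0.18 in the alignment-free table (adjusted p = 1; 1.2e-05 to 0.62 under the other settings, limma). The cause was not tested. Depth limits single hairpins: most members rest on fewer than 100 counts, and a 0 allows 3 counts per library.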
